A study of Saccharomyces cerevisiae SK1 with 28 samples.

Results

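The promoters listed after 6 h in BYTA were compared with those listed in vegetative cells, by ChIP-seq of wild-type SK1, a laboratory strain of budding yeast that sporulates efficiently. Vegetative cells were taken in exponential growth in the rich medium YPD at an OD600 of 0.6. The BYTA cells, labelled premeiotic starvation, had first grown to saturation in YPD, were diluted to an OD600 of 0.2 in BYTA, an acetate-based medium used before sporulation, and about 90 OD600 units were taken 6 h later. Growth was at 30 °C and the formaldehyde fixation, at 1%, took 15 min in both. Carbon source, growth history and time since dilution differ together between the states, so their parts cannot be told apart. No source used here gives the immunoprecipitated protein.

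These are 4 of the 28 libraries of the series, 2 ChIP libraries per state with 1 deposited table each. Calling a gene took a peak summit in its promoter window, the 600 bp upstream of its start, in both tables of the state. The 4 tables listed 364 genes with a systematic name, of 551 in the 14 ChIP tables of the series. Of these, 105 were called at 6 h in BYTA, which is 1.74% of 6021 protein-coding genes, and 15 in vegetative cells, which is 0.249%. Read depth is unknown, and a gene without a listed summit is not thereby shown to be unbound.

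The unfolded protein response (UPR) adjusts the folding capacity of the endoplasmic reticulum (ER). In yeast the ER sensor Ire1 starts the splicing of HAC1 mRNA, and the Hac1 protein made from it activates genes of chaperones, oxidative folding, glycosylation and lipid synthesis. Transfer from glucose to acetate calls on other genes, since cells must then make sugars through the glyoxylate cycle and gluconeogenesis and gain energy by respiration.

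The vegetative tables were short, with 18 summits and 23 genes in replicate 1, 0.382% of all genes, and 13 summits and 17 genes in replicate 2, 0.282%. The 6 h tables held 277 summits and 340 genes in replicate 1, 5.65% of all genes, and 91 summits and 111 genes in replicate 2, 1.84%. Every 6 h table was therefore longer than every vegetative one, and the 6 h replicates differed more from each other than the vegetative ones did. The mean was 225.5 ± 162 genes at 6 h against 20 ± 4.24 in vegetative cells (SD, n = 2 each), and a two-sided exact permutation test gave p = 0.33, the smallest that 2 tables against 2 allow. The lowest listed score, the authors' own value for a peak, was 333 and 401 in the vegetative tables and 334 and 325 at 6 h, and these values are not on one scale between tables. The highest number in the names of the listed peaks was 1834 and 1979 in the vegetative tables and 1783 and 1361 at 6 h. Peak numbering thus ran no higher at 6 h, and table length is not a count of all peaks. Which rule set the length of each table was not tested.

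Both states called 5 genes, KAR2 with TAD2, PSA1, and PDI1 with GLK1. They make up 33.3% of the 15 vegetative genes and 4.76% of the 105 genes at 6 h, and the same rule in both states is met by 0.083% of all genes. Of the other vegetative genes, 2 were listed in 6 h replicate 1 only and 8 in no 6 h table. In the other direction 100 genes, 1.66% of all, were called at 6 h and listed in no vegetative table, and no called 6 h gene was listed in just 1 vegetative table. Without 6 h replicate 2 340 genes are called, 333 of which no vegetative table lists. Without vegetative replicate 2 the vegetative genes number 23, of which 16 are in no 6 h table.

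KAR2 encodes BiP, the Hsp70 chaperone of the ER and the classical UPR target. Its summit ranked 2 of 18 and 2 of 13 in the vegetative tables, and 6 of 277 and 1 of 91 at 6 h. It lay 168 and 167 bp upstream of KAR2 in vegetative cells and 163 and 159 bp upstream at 6 h, at positions 391854, 391855, 391859 and 391863 of SK1 chromosome X. The 4 summits therefore fall within a few base pairs of one another and near the top of every table. They also lie 158 to 167 bp upstream of TAD2, the divergent gene of a tRNA deaminase subunit, so the summit sits midway between the 2 starts and does not separate them.

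PSA1 encodes GDP-mannose pyrophosphorylase, which makes the mannose donor for glycosylation. It ranked first in both vegetative tables, 4 of 277 in 6 h replicate 1 and 2 of 91 in replicate 2. Its summits lay 495, 493, 492 and 495 bp upstream, with a mean position in chromosome IV that differed by 0.5 bp between the states. PSA1 thus stood in the top 4 of all 4 tables, at nearly the same position.

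PDI1 encodes protein disulfide isomerase, the main ER oxidoreductase, and GLK1, on the other side of the shared region of chromosome III, encodes glucokinase. Their summit ranked low in the vegetative tables, 13 of 18 and 10 of 13, and high at 6 h, 7 of 277 and 12 of 91. The score was 464 and 504 in vegetative cells and 2297 and 1429 at 6 h. Scores from different tables are not on one scale, and tables of different lengths show no change by rank, so these are values within each table. The summit lay 246, 270, 250 and 219 bp upstream of PDI1, a mean shift of 23.5 bp between the states. All 5 shared genes had mean summits within 25 bp of each other in the 2 states.

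**Figure D1:**
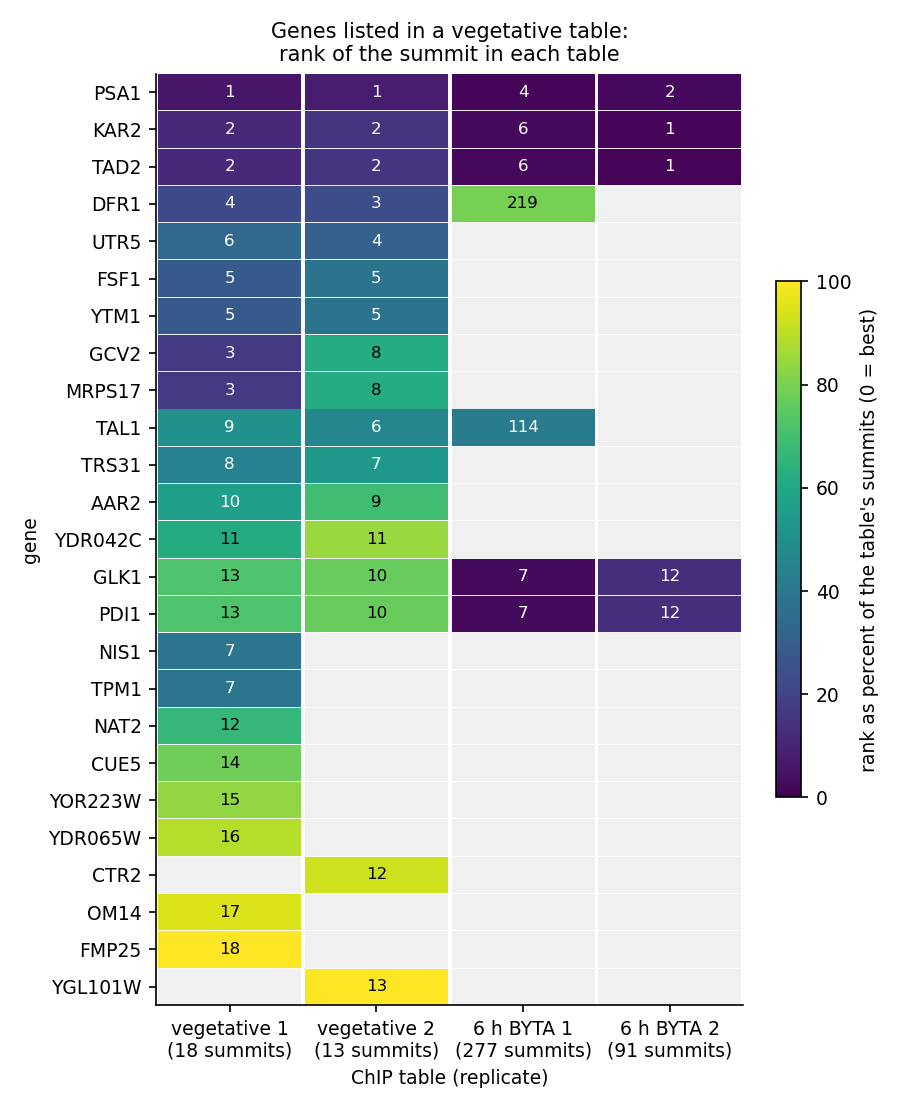
The 25 genes listed in at least 1 vegetative table (rows) in the 4 ChIP tables (columns); numbers give the summit's rank in that table, colours the rank as a percent of the table's summits, and grey marks a gene that was not listed. PSA1, KAR2 and TAD2 rank near the top of all 4 tables, PDI1 and GLK1 rank 13 and 10 in the vegetative tables and 7 and 12 at 6 h, and the last 10 genes, listed in 1 vegetative table, are in no 6 h table.

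DFR1, the dihydrofolate reductase gene, and TAL1, the transaldolase gene, were called in vegetative cells and listed in 6 h replicate 1 only. DFR1 ranked 4 of 18 and 3 of 13 in vegetative cells and 219 of 277 at 6 h, with the summit 151 and 136 bp upstream in vegetative cells and 84 bp at 6 h. TAL1 ranked 9 and 6 in vegetative cells and 114 at 6 h, and its 6 h summit lay 140 and 131 bp from the vegetative ones. As a percent of the table's summits, DFR1 stood at 22.2% and 23.1% in vegetative cells and 79.1% at 6 h, and TAL1 at 50.0%, 46.2% and 41.2%. In both genes the 6 h summit lay nearer to the gene.

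The 8 genes called in vegetative cells and listed in no 6 h table, 0.133% of all genes, were UTR5, FSF1 with YTM1, MRPS17 with GCV2, TRS31, AAR2 and YDR042C. YTM1 acts in ribosome assembly, MRPS17 encodes a protein of the mitochondrial ribosome, GCV2 a subunit of glycine decarboxylase, TRS31 a subunit of the TRAPP complex of vesicle traffic and AAR2 a factor of spliceosome assembly. MRPS17 and GCV2 ranked 3 of 18 in replicate 1 and 8 of 13 in replicate 2, and FSF1 and YTM1 ranked 5 in both. The nearest 6 h summit to the MRPS17 and GCV2 summits in 6 h replicate 1 was 5023 and 5019 bp away, and that to the FSF1 and YTM1 summits 4302 and 4287 bp. MRPS17 and GCV2 were listed again in both tables at 21 h in BYTA and in all 6 tables of sporulation medium, but in neither table of DTT treatment. The other 6 genes were in no table at 21 h or of sporulation medium. FSF1 and YTM1 were in both DTT tables, AAR2 and TRS31 in 1, and UTR5 and YDR042C in neither.

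UTR5 had 6 h summits within 1000 bp, on the other side of its start. The vegetative summits were 315 and 456 bp upstream of UTR5, at positions 104609 and 104750 of chromosome V. At 6 h the summits lay at 103959 and 103961, 650 and 648 bp from the first of these and 791 and 789 bp from the second. They lay beyond the UTR5 start, in the window of the divergent gene HYP2, which encodes the translation factor eIF5A, 466 and 464 bp upstream of it. The vegetative summits lay past the HYP2 start and so outside its window. Vegetative replicate summits differed by 141 bp here, the largest distance between replicates among the 15 genes.

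Compared by position rather than by gene, 4 of 18 summits of vegetative replicate 1 and 4 of 13 of replicate 2 had a summit of 6 h replicate 1 within 100 bp, and 3 of each had one of 6 h replicate 2. These were the summits at PSA1, at KAR2 and TAD2, at PDI1 and GLK1 and, in 6 h replicate 1, at DFR1. None of the 10 genes listed in a single vegetative table, among them TPM1, the major tropomyosin gene, and CTR2, a vacuolar copper transporter gene, was listed in a 6 h table, where 5.65% and 1.84% of all genes were, so a count of 0 of 10 is near the background.

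At 6 h in BYTA the replicates shared 105 genes, 94.6% of the shorter table of replicate 2 and 30.9% of the longer one of replicate 1. Replicate 1 alone listed 235 genes and replicate 2 alone 6, namely ROX1, PUT4, CIN1, IZH3, ARN1 and YHL039W. The shared genes ranked high in replicate 1, with a median rank at 16.2% of the table and quartiles of 8.30% and 24.9%. The genes listed in replicate 1 only had a median of 66.4% and quartiles of 49.3% and 83.6%. Of the 61 genes on the best 50 summits of replicate 1, 58 were in replicate 2 as well, and AMN1, ADP1 and PGK1 were not. AMN1, an antagonist of the mitotic exit network, ranked 8 of 277 with its summit 600 bp upstream, at the edge of the window. ADP1 and PGK1, the latter encoding phosphoglycerate kinase, share the summit at rank 40, and the glucose transporter gene HXT5 at rank 51 and the glycolytic gene TDH1 at rank 54 were the next best absent from replicate 2.

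Over the 84 summits behind the called genes, ranks in the 2 tables of 6 h in BYTA had a Spearman correlation of 0.81, given as a description because only summits listed in both enter it. CIT2 and REG2 were the called genes with the lowest ranks in replicate 1, 197 and 208 of 277, while in replicate 2 they ranked 70 and 63 of 91. Summit positions were closer than ranks, with a median of 9 bp between replicates and 103 of 105 genes within 50 bp. The exceptions were FTR1, with summits 38 and 173 bp upstream, and YGR050C, with summits 306 and 372 bp upstream.

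**Figure D2:**
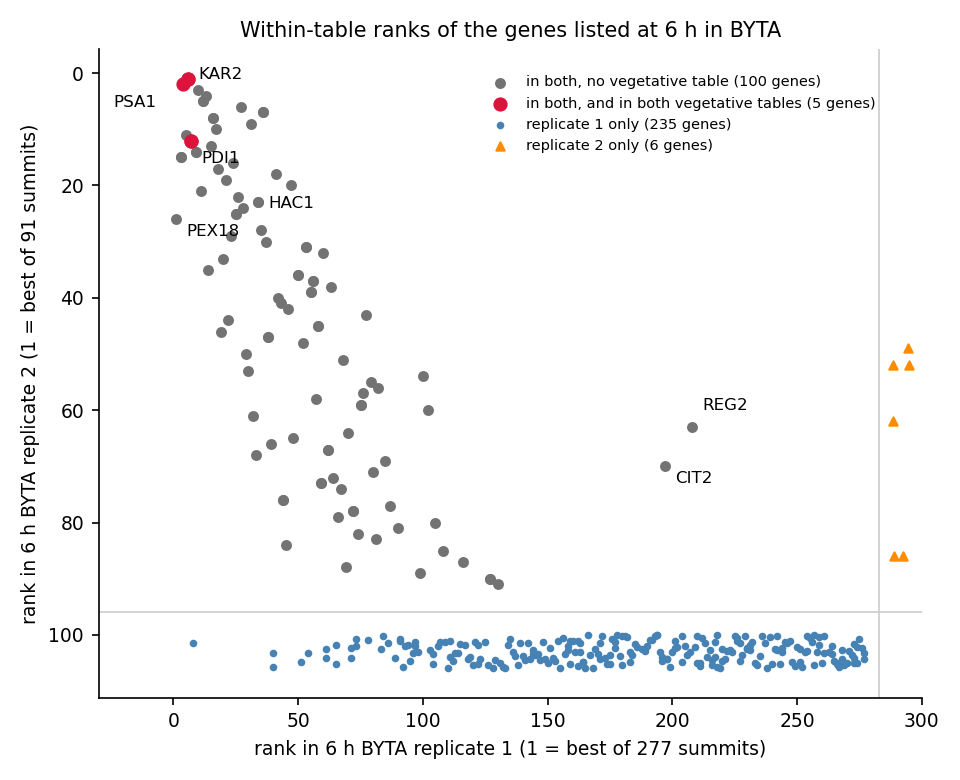
Rank of the summit of each gene listed at 6 h in BYTA, in replicate 1 (x axis, 277 summits) and replicate 2 (y axis, 91 summits, best at the top); genes listed in a single table are drawn in the strips beyond the grey lines, spread at random across the strip. Genes in both tables gather at the better ranks of replicate 1, with CIT2 and REG2 apart, and the 235 genes of replicate 1 alone run from rank 8 to its end.

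The best-ranked called genes at 6 h, after KAR2 with TAD2 and PSA1, were PBI2, YPR036W-A, BDF2 with YET3, and PIL1. PBI2, an inhibitor of the vacuolar protease Prb1, ranked 10 of 277 and 3 of 91, with summits 276 and 274 bp upstream. YPR036W-A ranked 13 and 4, 391 and 390 bp upstream. BDF2, which encodes a bromodomain protein, and YET3, which encodes an ER membrane protein, shared ranks 12 and 5. PIL1, the gene of the main eisosome protein of the plasma membrane, ranked 5 and 11, 415 and 414 bp upstream. None of these was listed in a vegetative table. Those tables list 0.382% and 0.282% of all genes, so this absence is near the background.

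IPT1, for the last step of complex sphingolipid synthesis, followed with SNF11, a subunit gene of the SWI/SNF remodeller, at ranks 16 and 8. ALD6, which encodes the cytosolic aldehyde dehydrogenase that makes acetate, ranked 27 and 6 with summits 570 and 558 bp upstream. RPM2, for the protein subunit of mitochondrial RNase P, ranked 17 and 10. ERG27, an ergosterol synthesis gene, and ICT1, which encodes a lysophosphatidic acid acyltransferase, shared ranks 3 and 15. FUM1, the fumarase gene, and KEL3 shared ranks 9 and 14, and TPO4, for a polyamine transporter, ranked 15 and 13. Genes that share ranks here share a summit, which does not say to which of them it belongs. Of the 20 best called genes the 5 that vegetative cells shared were the only ones listed in a vegetative table. The vegetative tables list 0.382% and 0.282% of all genes.

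HAC1, the gene of the UPR transcription factor itself, was listed in both 6 h tables and in neither vegetative one. It ranked 34 of 277 and 23 of 91, with summits 226 and 221 bp upstream, at positions 95872 and 95877 of chromosome VI (SK1_06G00360, window 95498 to 96097). The same summits lie 543 and 548 bp upstream of RIM15, which encodes a protein kinase that acts on entry into quiescence and meiosis. HAC1 was the 1 member called of the 4 UPR signalling genes IRE1, HAC1, RLG1 and PTC2.

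Over 7 ER lists together, grouped after values were seen, 7 of 142 members were called at 6 h, 4.93% against 1.74% of all genes. Of 12 chaperone and cofactor genes KAR2 was called, 8.33%, and of 7 oxidative folding genes PDI1 and ERO1, 28.6%. ERO1, which encodes the oxidase that recharges Pdi1, ranked 29 and 50, 133 and 136 bp upstream, and was in no vegetative table. SIL1 and LHS1, for the exchange factors of BiP, and EUG1, a PDI1 relative, were in 6 h replicate 1 only, at ranks 97, 194 and 249 of 277. Of 48 genes for mannose donors, glycosylation and GPI anchors, PSA1, MCD4 and PMT2 were called, 6.25%. MCD4 acts in GPI anchor synthesis and ranked 19 and 46, and PMT2, a protein O-mannosyltransferase gene, ranked 39 and 66. PMT1 was in replicate 1 only, at rank 177.

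The other ER lists held 0 called genes at 6 h, beside 1.74% of all genes. Of 21 translocation genes SEC61 and SEC62, both for the translocon, were in replicate 1 only. Of 34 genes of ER to Golgi traffic SEC24, a COPII coat gene, was in replicate 1 only, and none of 16 ER-associated degradation genes was listed. In vegetative cells 4 of the 142 ER members were called, where the share of all genes was 0.249%, KAR2, PDI1, PSA1 and TRS31.

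Members of 4 lists of carbon metabolism were called more often than genes in general. These lists were chosen with earlier results of these data known, and the excess was not tested. Of 23 genes of gluconeogenesis, the glyoxylate cycle and acetate use, 6 were called, 26.1% against 1.74% of all genes, and 10 were in replicate 1, where the share of all genes was 5.65%. PCK1, which encodes the phosphoenolpyruvate carboxykinase of gluconeogenesis, ranked 31 and 9, 543 and 526 bp upstream. MDH2, for cytosolic malate dehydrogenase, ranked 36 and 7, and MLS1, for malate synthase, ranked 53 and 31. ACS2, an acetyl-CoA synthetase gene, ranked 76 and 57, and FBP1, the fructose-1,6-bisphosphatase gene, 102 and 60. JEN1, for a lactate and pyruvate transporter, ACH1, IDP2 and YAT1 were in replicate 1 only, while ICL1, ACS1 and the regulators CAT8 and ADR1 were in no 6 h table.

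Of 41 genes of the TCA cycle and respiration, FUM1, NDE1 and SDH1 were called, 7.32% against 1.74% of all genes. In replicate 1 there were 9, 22.0% against 5.65%. NDE1, for the external NADH dehydrogenase of mitochondria, ranked 46 and 42, and SDH1, for a succinate dehydrogenase subunit, 58 and 45. The aconitase gene ACO1 and COX7, CYB2, CYC1, COX5A and CYT1 were in replicate 1 only. Of 16 genes of glucose uptake and sensing SKS1, a kinase gene of the response to low glucose, was called, 6.25%. It ranked 47 and 20, and its summits lay 597 and 579 bp upstream.

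Glycolytic genes were listed beside the gluconeogenic ones. Of 22 genes of glycolysis and fermentation, 5 were called, 22.7% against 1.74% of all genes. In replicate 1 there were 14, 63.6% against 5.65% and the highest share of any list there. CDC19, the pyruvate kinase gene, ranked 20 and 33, FBA1, the aldolase gene, 32 and 61, and PDC1, the pyruvate decarboxylase gene, 60 and 32. TDH3, for a glyceraldehyde-3-phosphate dehydrogenase, ranked 57 and 58. GLK1 was the member also called in vegetative cells. TPI1, ENO1, ENO2, GPM1, PGI1, PFK2 and TDH2 were further members in replicate 1 alone.

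**Figure D3:**
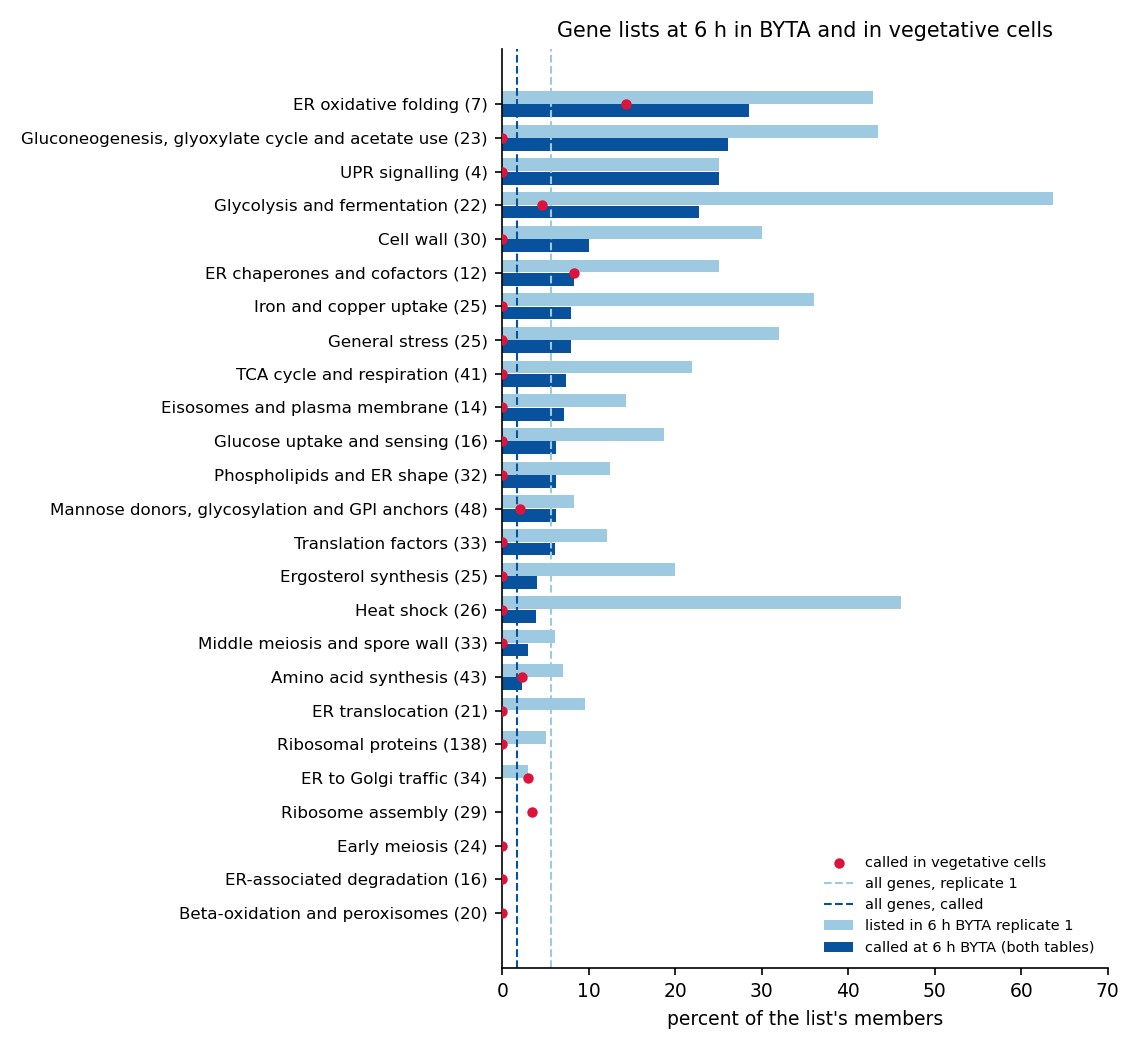
Percent of each gene list's members (number in brackets) listed in 6 h BYTA replicate 1 (light bars) and called in both 6 h tables (dark bars), with vegetative calls as red points; dashed lines give the same shares of all genes, 5.65% and 1.74%. Glycolysis reaches 63.6% in replicate 1 and 22.7% when called, while heat shock falls from 46.2% to 3.85%.

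Heat shock genes differed between the 6 h tables. Of 26 heat shock genes 12 were in replicate 1, 46.2% against 5.65% of all genes. Of them 1, SSA1, was in replicate 2 and so called, 3.85% of the list against 1.74%. Of all genes of replicate 1 30.9% were called. SSA1, a cytosolic Hsp70 gene, shares its summit with EFB1, which encodes a translation elongation factor subunit, at ranks 38 and 47. The other 11, such as SSE1 at rank 93, HSP104, the disaggregase gene, at rank 96, HSP42 at rank 157 and SSA4 at rank 246, were spread over replicate 1. Of 25 general stress genes TSA1, a peroxiredoxin gene, and YGP1, a cell wall glycoprotein gene, were called, 8.00% against 1.74% of all genes, and 8 were in replicate 1, 32% against 5.65%. HSP12 at rank 71, CTT1, the cytosolic catalase gene, at rank 112, SOD1, PNC1, TSL1 and TPS1 were in replicate 1 only.

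Among membrane and surface genes, the cell wall list had CCW12, SED1 and CWP1 called of 30, 10% against 1.74% of all genes. In replicate 1 it had 9, 30% against 5.65%. CCW12 and SED1 encode abundant wall mannoproteins and had summits more than 500 bp upstream, 524 and 556 bp for CCW12 and 523 and 520 bp for SED1. Of 25 ergosterol genes ERG27 was called, 4% against 1.74% of all genes, and ERG25, ERG3, ERG5 and ERG6 were in replicate 1 only. Of 32 genes of phospholipids and ER shape ICT1 and OLE1 were called, 6.25%. ICT1 lies on the ERG27 summit, so 1 summit counts in both lists. With each summit counted for the nearest gene only, 1 of the 32 was called. OLE1, the fatty acid desaturase gene, stood at rank 25 in both tables. INO2, an activator gene of phospholipid synthesis, and APQ12 were in replicate 1 only. Of 14 genes of eisosomes and the plasma membrane PIL1 was called, 7.14%.

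Of 25 iron and copper uptake genes CTR1 and FTR1 were called, 8.00% against 1.74% of all genes. In replicate 1 there were 9, 36% against 5.65%. CTR1, the high-affinity copper transporter gene, ranked 21 and 19, 428 and 432 bp upstream, and FTR1, the iron permease gene, ranked 11 and 21. FET3, whose product is the oxidase partner of Ftr1, was in replicate 1 at rank 65, and ARN1, for a siderophore transporter, was in replicate 2 only. FRE4, a ferric reductase gene outside the list, was called at ranks 33 and 68.

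Of 33 translation factor genes EFB1 and HYP2 were called at 6 h, 6.06% against 1.74% of all genes, and of 43 amino acid synthesis genes LYS20, 2.33%. Of 29 ribosome assembly genes none was called. RPM2, which was called, had been taken out of that list as misplaced after values were seen. Ribosomal protein genes had 0 of 138 called and 7 in replicate 1, 5.07% against 5.65% of all genes. Of 24 early meiosis genes 0 were listed, and of 33 middle meiosis and spore wall genes 1 was called, 3.03%, namely CDA2, a chitin deacetylase gene of the spore wall, at ranks 56 and 37. None of the 20 genes on the list of beta-oxidation and peroxisomes was listed. PEX18, a peroxin gene outside that list, was called at ranks 1 and 26. The 25 lists together held 38 of the 105 called genes.

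Of the 67 called genes outside the lists, 6 are described here that were picked after their values were seen, with no list behind them. SNQ2, PDR5 and PDR15 encode ABC transporters that export drugs, TPO1 and TPO4 polyamine transporters, and PDR16 a phosphatidylinositol transfer protein. SNQ2 ranked 24 and 16, TPO1 41 and 18, PDR15 70 and 64, PDR16 100 and 54, and PDR5 116 and 87. Their summits lay from 405 bp upstream at PDR16 to 588 bp at SNQ2, and 57.1% of all called genes had a mean position of at least 400 bp.

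Whether summits at 6 h lay farther upstream than in vegetative cells depended on the genes and the tables compared. The median of the called genes was 428 bp at 6 h, with quartiles of 335.5 and 510 bp against 320 bp in vegetative cells, with quartiles of 188 and 438 bp. A distance of at least 400 bp was found for 60 of 105 genes at 6 h, 57.1%, and for 4 of 15 in vegetative cells, 26.7%. The ranges overlapped almost fully, 50.5 to 588 bp against 143.5 to 550.5 bp, and over all genes of replicate 1 the difference was gone. The medians there were 360 bp at 6 h and 365 bp in vegetative cells, with 39.4% and 39.1% at 400 bp or more. Over all genes of replicate 2 the difference remained, with medians of 428 bp at 6 h and 320 bp in vegetative cells. The shares at 400 bp or more were 58.6% and 35.3%. Replicate numbers do not pair the tables of the 2 states, so the other matches count equally. For 6 h replicate 1 against vegetative replicate 2 the medians were 360 and 320 bp, with 39.4% and 35.3% at 400 bp or more. For 6 h replicate 2 against vegetative replicate 1 they were 428 and 365 bp, with 58.6% and 39.1%. With each summit counted for the nearest gene only, the medians of the called genes were 408.5 and 258 bp. In 6 h replicate 1 position moved with rank. The genes on ranks 1 to 50 had a median of 428 bp and those on ranks 201 to 277 one of 306 bp, and the share nearer than 300 bp was 23.0% and 47.5% in the same order. In replicate 2 the medians were 432 bp for ranks 1 to 50 and 424 bp for ranks 51 to 91. The genes of replicate 1 alone had a median of 327 bp.

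Most ER genes listed at 6 h had summits near their starts. Of the 7 called ER genes 6 had mean summits nearer than 300 bp, from 134.5 bp at ERO1 to 234.5 bp at PDI1, and PSA1 at 493.5 bp was the exception. Among the other 98 called genes 12 were nearer than 300 bp, and their median was 430 bp against 209 bp for the ER genes. In replicate 1 the 14 listed ER genes had a median of 156.5 bp with 12 nearer than 300 bp, against a median of 365 bp and 105 of 326 for the remaining genes. SIL1 at 84 bp, LHS1 at 81 bp and SEC62 at 53 bp were the nearest of the ER genes. Their summits also lie in the windows of GAS5, MUD2 and NOG1. Those of KAR2, PDI1, HAC1, PMT1 and SEC24 lie in another gene's window too. Such summits cannot be assigned to the ER gene. ERO1, EUG1, MCD4 and PMT2 had near summits that fell in no other window. The 15 called genes of the 4 carbon lists had a median of 428 bp. SDH1, at 226 bp, and TDH3, at 291.5 bp, were the 2 nearer than 300 bp. GLK1 of these lists lies on the PDI1 summit, at 376.5 bp, so that summit counts in both the ER and the carbon set. Other lists also lay near in replicate 1, with a median of 241 bp for 7 ribosomal protein genes, 280 bp for 12 heat shock genes and 280 bp for 9 iron and copper genes. This contrast was drawn after the positions were seen, and it was not tested.

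**Figure D4:**
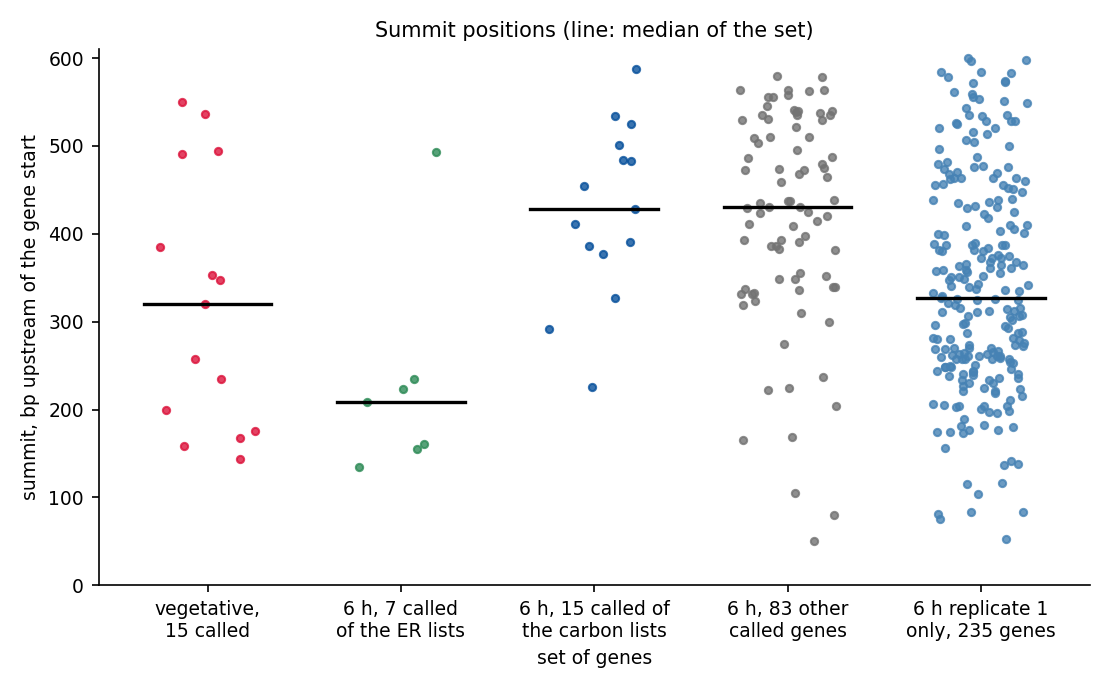
Distance of the summit upstream of the gene start in bp, 1 point per gene and the median of each set as a line; for called genes the mean of both tables is drawn, for the last set the value in replicate 1. The 7 called ER genes have a median of 209 bp, with PSA1 alone beyond 300 bp, while the carbon genes and the other called genes have medians of 428 and 430.5 bp.

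Shared promoter regions add to the gene counts in both states. At 6 h 43 of the 105 called genes lay on a summit that also fell in another gene's window, and the 105 genes rest on 84 summits. In vegetative cells 8 of 15 genes did, and the 15 genes rest on 11 summits. With each summit counted for the nearest gene only, the calls number 82 at 6 h and 11 in vegetative cells, and PSA1 and PDI1 are the 2 genes called in both. KAR2 drops out there because its vegetative summits lie nearer to TAD2.

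The 100 genes called at 6 h and in no vegetative table can be set beside the other tables of the series. Vegetative cells treated with DTT, which disturbs protein folding, listed 73 of them in both tables, 2 in 1 table and 25 in none. Those tables hold 296 and 245 summits, and both list 4.68% of all genes. The tables at 21 h in BYTA hold 22 and 23 summits, and both list 0.448% of all genes. There 2 of the 100 genes were listed in both tables, DCP2 and MLS1, which share a promoter, 4 in 1 table and 94 in none. The 7 called ER genes were all in both DTT tables. The KAR2 summits there lay 510 and 390 bp upstream, against 163 and 159 bp at 6 h, and TAD2 was in neither DTT table. Of the 15 called carbon genes 8 were in both DTT tables, and CIT2, FBP1, FUM1, NDE1, SDH1, SKS1 and TDH3 were in neither.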

How the data were processed

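The deposited tables pair peak summits with 600 bp promoter windows of SK1 genes, as the file headers show, and the peak names tie each table, and each peak call, to 1 library. The submitters' processing notes list MACS2 2.2.9.1, Bowtie2 2.3.4.1, ChIPseeker 1.44.0 and SAMtools 1.7 and give no roles. The assembly, the control of the peak calls and the rule that chose the listed summits are not stated. The deposited score is the authors' own value per peak, of unnamed type, and served to rank or filter within a table. The 14 input libraries were not analysed here.

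Distances run from the summit to the gene-side end of the window. For 77 of 100 summits between divergent genes the window ends were as far apart as the gene starts in R64, within 5 bp. Gene names come from the tables, 6021 protein-coding genes of RefSeq R64 gave the background, and gene identifiers without a systematic name did not enter gene counts. Ranks order summits by score within a table, and genes were ordered by the mean of their rank percentiles in both tables of a state.

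Named are all genes called in vegetative cells, the 20 best called at 6 h, called members of the 25 lists, KAR2 and HAC1, the 5 best genes of 6 h replicate 1 alone and all of replicate 2 alone. Members and lists were chosen with earlier results of these data known, and 1 list name was not matched. After values were seen, FSF1 and RPM2 were taken out of the ribosome assembly list as misplaced there and the heat shock list was renamed. The grouping of 7 ER and 4 carbon lists, the limits of 300 and 400 bp, the rank bands and other named genes, such as REG2 and FRE4, were also chosen then. No list was tested. Nothing says that replicates came from separate cultures, so their spread may be technical. The calling, distance and permutation steps were tested on simulated tables. Python 3.11.15, pandas 2.3.3 and matplotlib 3.10.9 were used.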

Additional observations from a re-analysis of the deposited data

How the results depend on the processing

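Each table's length sets these counts. Calling a gene in either replicate gave 346 genes at 6 h, 25 in vegetative cells, 339 at 6 h and in no vegetative table and 18 in the other direction. With scores of at least 500 the counts at 6 h were 65 and, outside vegetative tables, 60, and 3 genes were called in both states. When tables were cut to their best 15 summits, 15 genes were called at 6 h, 10 of them in no vegetative table, the same 5 genes were shared, and the mean difference was 2 genes per table. Counting only the nearest gene left 2 shared genes. Leaving out 1 library gave 111 to 340 genes at 6 h, 17 to 23 in vegetative cells, 5 to 7 shared, 100 to 333 in no vegetative table, 8 to 16 in no 6 h table and a difference of 91 to 320 genes per table. The high ends for 6 h come from leaving out its replicate 2. The shared genes within 100 bp numbered 5 at limits of 25, 50 and 200 bp as well. Median positions moved by less than 1 SD of the genes' positions under every alternative run. These runs included the genes of 6 h replicate 1 alone, a set chosen after seeing the data. That SD, 127 bp at 6 h and 145 bp in vegetative cells, exceeds the gap between the medians of 428 and 320 bp. The limit therefore cannot show whether the gap held. Over these runs the 6 h median lay between 327 and 428 bp and the vegetative one between 258 and 365 bp. Of the 25 lists, 18 had over 1.5 times as many members with 6 h replicate 1 alone, 0 changed so with replicate 2 alone, and 2 lost members by that much with the nearest gene. With the replicate number as a replicate block the difference of 205.5 genes per table had an exact paired permutation p = 0.5, the smallest that 2 pairs allow. The labels give the number no meaning beyond the replicate.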

Other observations

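PEX18, which encodes a peroxin for the import of peroxisomal thiolase, had the best score of 6 h replicate 1 and ranked 26 of 91 in replicate 2, with summits 50 and 51 bp upstream. An SK1 gene identifier without a systematic name on chromosome XVI, SK1_16G04420, ranked 2 of 277 and 27 of 91, with summits 55 and 51 bp upstream. Neither was in a vegetative table, and those hold only 18 and 13 summits. PEX18 was listed in 5 of the 14 ChIP tables of the series, the others being both DTT tables and 1 table at 21 h in BYTA. Such identifiers numbered 8 of 348 and 4 of 115 pairs of summit and window in the 6 h tables. In the vegetative tables they numbered 0 of 23 and 0 of 17, too few pairs to show a difference.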
